A study of Homo sapiens with 4 samples.

Results

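A set of 10 genes known as oncofetal markers of liver cancer was followed in RNA-seq data from established human HCC cell lines: AFP, GPC3, IGF2, DLK1, SALL4, LIN28B, IGF2BP1, IGF2BP2, IGF2BP3 and EPCAM. They were chosen by symbol, and all 10 were found among the 19225 entries of the table of counts per gene. There were 4 libraries, 1 for each combination of cell line and short hairpin RNA (shRNA): HCC-LM3 cells, a metastatic human HCC line, and Huh-7 cells, derived from a human hepatoma. Each line was labelled either sh-WDR4-2, a hairpin against the tRNA m7G methyltransferase subunit WDR4, or sh-NC, a scrambled control hairpin. According to the methods, the hairpins were carried by lentivirus and stable cells were selected with puromycin, so the controls also carry a vector and were selected. The labels give 48 h for all 4 libraries. The comparison addresses whether reduced WDR4 changes the transcriptome of HCC cells. No group had a second library, and only 1 hairpin against WDR4 was sequenced.

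The libraries held 29807047 to 40572251 counts. Counts were scaled by TMM to CPM, the count per 1000000 counts of the library, and where a library had none, 3 counts were taken as the floor, which is 0.069 to 0.094 CPM. As a check of the labels, WDR4 was counted 1009 times under sh-WDR4-2 and 1604 times under sh-NC in HCC-LM3 (log2 difference −0.22, 95% exact binomial interval for counting error −0.34 to −0.11). The corresponding Huh-7 counts were 990 and 1077 (log2 difference −0.02, interval −0.15 to 0.11). A fall of WDR4 was thus not detectable in Huh-7, and libraries are called by their labels. The labels disagree with each other: 1 treatment field of the sh-WDR4-2 libraries reads as a WDR4 transduction and the other as an siRNA transfection, and the extraction text of the Huh-7 libraries names retinas. Of 6 retina markers, none exceeded 8 counts in any library. The hepatocyte markers were also low. ALB, encoding albumin, and TTR, encoding transthyretin, had 0 counts in all 4 libraries, as did AFM and GC, the neighbours of ALB and AFP in the albumin gene cluster, and TF, SERPINA1 and FGB had at most 7. The entries named APOA1 and APOB held 3334 to 5407 and 2869 to 4223 counts, but their symbols are misplaced in the ordering of the table and may be exchanged. The other 7 genes of the hepatocyte list summed to 1.72 to 2.85 CPM in HCC-LM3 and 57.1 to 59.4 CPM in Huh-7 libraries, the latter almost entirely HNF4A, a hepatocyte transcription factor, with 1980 and 2033 counts. Of the secreted hepatocyte products with symbols in order, ALB and TTR were thus not detected and TF, SERPINA1 and FGB had few counts or none, and what this means for the identity of the cells was not tested. Among other cell types, KRT7 of the biliary list had 12987 to 75798 counts while KRT19 had at most 6, PTPRC of the blood list and PECAM1 of the endothelial list were at 0 throughout, and COL3A1 of the fibroblast list had 1209 and 1379 counts in HCC-LM3 and 0 in both Huh-7 libraries. Summed levels in HCC-LM3 and Huh-7 libraries were 1429 to 1752 and 405 to 425 CPM for the 6 biliary markers, 0.345 to 0.532 and 1.64 to 2.02 CPM for 5 blood markers, 10.9 to 11.6 and 3.25 to 3.4 CPM for 4 endothelial markers, and 239 to 247 and 129 to 133 CPM for 5 fibroblast and stellate markers.

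Oncofetal genes are active in fetal liver, are silenced around birth and return in a share of liver tumours. AFP is the classical serum marker, and GPC3 and EPCAM are surface proteins used in diagnosis. IGF2 and DLK1 are imprinted genes of fetal growth. LIN28B is an RNA-binding protein that blocks the maturation of the let-7 microRNAs, which repress LIN28B itself and the mRNA-binding proteins IGF2BP1, IGF2BP2 and IGF2BP3. SALL4 is a zinc-finger factor of stem cells and fetal liver.

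Of the 10 markers, 6 reached 1 CPM in HCC-LM3 cells and 5 in Huh-7 cells. SALL4, IGF2BP1, IGF2BP2 and IGF2BP3 reached it in both lines, GPC3 and LIN28B only in HCC-LM3, EPCAM only in Huh-7, and AFP, IGF2 and DLK1 in neither. In bulk libraries a lower level can come from fewer expressing cells or from less RNA per cell, and these cannot be told apart. Presence was set by the mean of both libraries of a line, so it could not differ by hairpin. Each library taken alone also lay on the same side of 1 CPM as the mean of its line. Since the fall of WDR4 was small or not detectable, no conclusion on WDR4 is drawn from this.

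**Figure D1:**
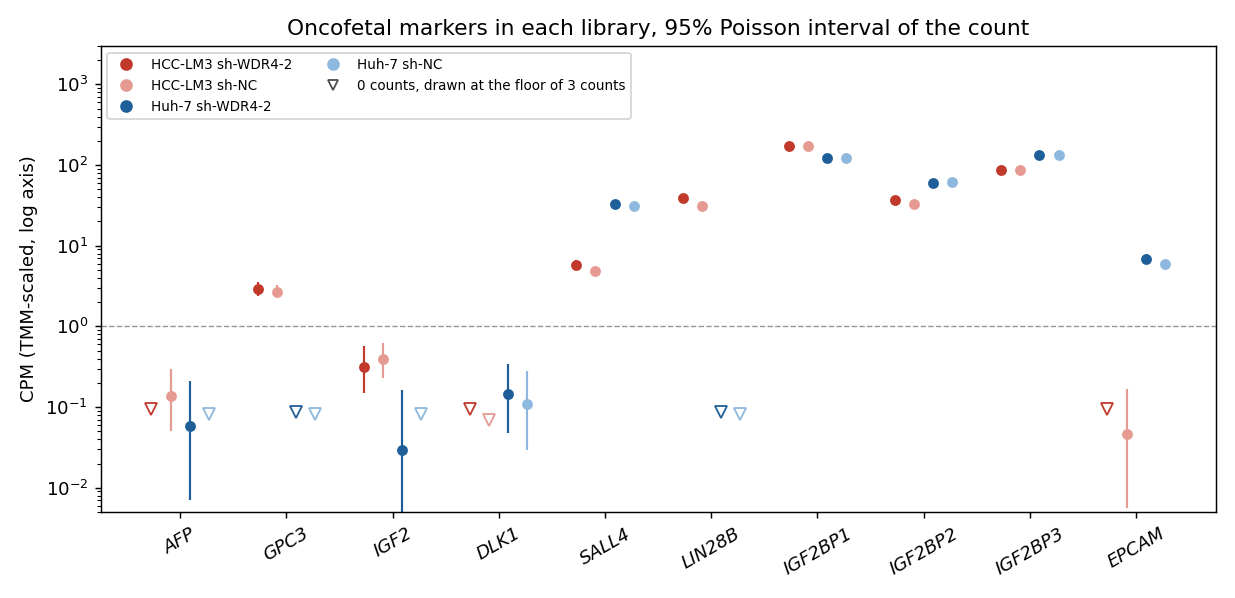
TMM-scaled CPM on a log axis for each of the 10 markers, 1 point per library with the 95% exact Poisson interval of its count, colours for the 4 libraries, and open triangles for 0 counts drawn at the floor of 3 counts. LIN28B and GPC3 lie above the dashed line at 1 CPM in HCC-LM3 libraries only, EPCAM in Huh-7 libraries only, and the IGF2BP genes at 32.5 to 174 CPM in all 4.

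For the difference between the lines, edgeR's robust quasi-likelihood test was run over the 12693 genes averaging 1 CPM or more, with the hairpin as a term and the Benjamini-Hochberg adjustment. A gene was called at an adjusted p under 0.05 and over 2-fold. Each line had 2 libraries, which differ in hairpin and are not stated to be separate cultures. The fit had 1 residual degree of freedom, and edgeR shared information on spread across genes. The p-values thus reflect spread between these libraries as pooled over genes, not that between separate cultures. In all, 7 markers entered the test and 4 were called, 2 higher in HCC-LM3 and 2 higher in Huh-7. Over all genes 27.2% were called, 14.4% higher in HCC-LM3 and 12.8% higher in Huh-7. All 7 had an adjusted p under 0.05, as did 77.8% of all genes. GPC3, LIN28B and EPCAM passed the filter through the line in which they were high, so their calls were fixed in part by the filter.

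Among the secreted and growth-factor markers almost no transcript was counted. AFP (chr4:73431138-73456174, plus strand, GRCh38) was counted 0 times in HCC-LM3 sh-WDR4-2, 6 times in HCC-LM3 sh-NC, 2 in Huh-7 sh-WDR4-2 and 0 in Huh-7 sh-NC. These counts allow at most 0.3 CPM in any library, and the lines overlapped, with an HCC-LM3 to Huh-7 ratio of 2.82 (counting interval 0.503 to 28.5). IGF2 (chr11:2129112-2149603, minus strand) had 10 and 17 counts in the sh-WDR4-2 and sh-NC libraries of HCC-LM3 and 1 and 0 in those of Huh-7. Its ratio of 25.3 (4.18 to 1038) placed HCC-LM3 higher, at 0.352 CPM on average. It overlaps INS-IGF2 on the same strand and IGF2-AS on the other, and since the strand setting of the counting is not given in the sources used here, these few reads cannot be assigned with certainty. DLK1 (chr14:100725705-100738224, plus strand), a Notch-like surface protein of fetal hepatoblasts, was at 0 in either HCC-LM3 library and had 5 and 4 counts in Huh-7 sh-WDR4-2 and sh-NC. Its Huh-7 mean was 1.57 times the floor of 3 counts per HCC-LM3 library, with counting error not included. Without the filter, edgeR gave DLK1 a log2 fold change of −5.23 for HCC-LM3 over Huh-7 (SE 3.06, adjusted p = 0.134). None of the 3 entered the main test across genes. What these low counts, and the 0 counts of GPC3 in Huh-7, mean for the identity of the cells was not tested.

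The surface markers divided the lines in opposite directions. GPC3 (chrX:133535745-133985895, minus strand), a heparan sulphate proteoglycan anchored in the membrane, had 94 and 117 counts in the sh-WDR4-2 and sh-NC libraries of HCC-LM3, or 2.94 and 2.69 CPM, and 0 counts in both Huh-7 libraries. HCC-LM3 was at least 33.2-fold higher, with 3 counts per library set as the floor for Huh-7. The adjusted p was 4.63e-08 with edgeR and 0.0338 with DESeq2, a second test. GPC3 entered the test only through HCC-LM3, so its call was fixed in part by the filter. GPC3 fell below the filter, and its call was lost, when either HCC-LM3 library was left out or a mean of 10 CPM was required. Per length GPC3 was low even where present, at 1.29 and 1.18 CPM per kb, above 10.9% and 10.5% of the 12683 genes that reached 1 CPM in this line. EPCAM (chr2:47345158-47387601, plus strand), an epithelial adhesion protein of hepatic progenitor cells, had 0 and 2 counts in the sh-WDR4-2 and sh-NC libraries of HCC-LM3 and 237 and 216 in those of Huh-7, or 6.94 and 5.9 CPM. The lines did not overlap, and the ratio of Huh-7 to HCC-LM3 was 241 (counting interval 66.4 to 1999), with a log2 fold change of −7.73 (SE 0.53, adjusted p = 5.18e-10) for HCC-LM3 over Huh-7. The size rests on the 2 counts of HCC-LM3 sh-NC, since the log2 fold change was −10.78 without that library, a value that depends on the prior count because HCC-LM3 is then at 0, and −7.02 without HCC-LM3 sh-WDR4-2. EPCAM entered the test only through Huh-7, so its call was fixed in part by the filter, and at a mean of 10 CPM it was no longer tested. Its level per length lay above 22% and 19.1% of the 11971 genes that reached 1 CPM in this line.

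SALL4 (chr20:51782331-51802520, minus strand) was present in both lines and higher in Huh-7. It had 185 and 213 counts in the sh-WDR4-2 and sh-NC libraries of HCC-LM3, or 5.79 and 4.9 CPM, and 1126 counts in each Huh-7 library, or 33 and 30.7 CPM. The lines did not overlap. Huh-7 was 6.03-fold higher (counting interval 5.42 to 6.72), with a log2 fold change of −2.58 (SE 0.12, adjusted p = 1.01e-12) for HCC-LM3 over Huh-7.

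LIN28B (chr6:104936616-105083332, plus strand) was counted in HCC-LM3 only. It had 1250 and 1338 counts in the sh-WDR4-2 and sh-NC libraries of HCC-LM3, or 39.2 and 30.8 CPM, and 0 counts in both Huh-7 libraries. The difference was at least 412-fold with 3 counts per library as the floor. Its adjusted p was 1.92e-15 with edgeR and 0.00267 with DESeq2. LIN28B passed the filter only through HCC-LM3, so its call was fixed in part by the filter. In HCC-LM3 it lay at 7.11 and 5.59 CPM per kb, above 38.1% and 32.6% of genes. LIN28B-AS1 lies on the opposite strand. LIN28A, the paralog of LIN28B, had 0 counts in all 4 libraries.

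The IGF2BP genes, which encode paralogous proteins that bind and stabilise mRNAs such as those of IGF2 and MYC, were the most abundant of the markers per length, and they moved in different directions between the lines. IGF2BP1 (chr17:48997412-49055650, plus strand) had 5567 and 7463 counts in the sh-WDR4-2 and sh-NC libraries of HCC-LM3 and 4237 and 4557 in those of Huh-7, or 174, 172, 124 and 124 CPM. It was 1.39-fold higher in HCC-LM3 (1.35 to 1.43), a log2 fold change of 0.48 (SE 0.05, adjusted p = 3.16e-07). IGF2BP2 (chr3:185643739-185825056, minus strand), the paralog that adult tissues also express, had 1165, 1412, 2063 and 2292 counts in the same order, or 36.5, 32.5, 60.4 and 62.6 CPM. It was 1.8-fold higher in Huh-7 (1.71 to 1.89), a log2 fold change of −0.84 (SE 0.08, adjusted p = 3.62e-08) for HCC-LM3 over Huh-7. IGF2BP3 (chr7:23310209-23470467, minus strand) had 2810, 3746, 4599 and 4919 counts, or 88, 86.2, 135 and 134 CPM, and was 1.55-fold higher in Huh-7 (1.5 to 1.6), a log2 fold change of −0.63 (SE 0.06, adjusted p = 1.45e-08). For each of the 3 genes the lines did not overlap, but none passed 2-fold. IGF2BP2-AS1 and MALSU1 lie opposite IGF2BP2 and IGF2BP3, and reads of such partners cannot be separated without the strand.

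Per length, IGF2BP3 and IGF2BP1 led in HCC-LM3, at 20.7 to 21.2 and 20.1 to 20.4 CPM per kb, and their counting intervals overlapped in both libraries. IGF2BP2 at 7.86 to 8.83 and LIN28B at 5.59 to 7.11 CPM per kb followed, and SALL4 at 1.18 to 1.39 and GPC3 at 1.18 to 1.29 CPM per kb overlapped at the low end. In Huh-7, IGF2BP3 led alone at 32.3 to 32.4 CPM per kb, above 77.5% of genes. IGF2BP2 at 14.6 to 15.1 and IGF2BP1 at 14.5 CPM per kb had overlapping counting intervals, and SALL4 at 7.37 to 7.91 and EPCAM at 3.43 to 4.04 CPM per kb followed. The summed level of the IGF2BP genes was 50.4 and 48.6 CPM per kb in the sh-WDR4-2 and sh-NC libraries of HCC-LM3 and 61.5 and 62 in those of Huh-7. IGF2BP1 made up 40.4% and 41.2% of it in HCC-LM3 and 23.6% and 23.5% in Huh-7, IGF2BP2 17.5% and 16.2% against 23.8% and 24.4%, and IGF2BP3 42% and 42.6% against 52.7% and 52.1%. These levels and shares use the gene lengths that the authors used, so an error in a length would shift them in all 4 libraries. The length used differed from the nearest GENCODE transcript by 12% for IGF2BP2 (4132 against 3688 bases). For SALL4 it differed by 19.9% (4170 against 5208 bases). The order of these genes next to others of similar level therefore depends on the length taken, and the counting intervals do not include this.

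**Figure D2:**
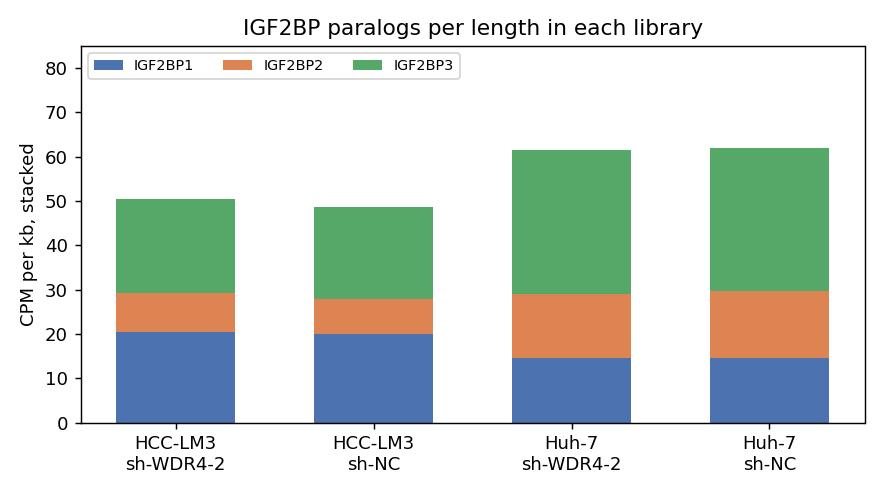
Stacked bars of CPM per kb of IGF2BP1, IGF2BP2 and IGF2BP3 in each of the 4 libraries, from the deposited counts and gene lengths. The IGF2BP1 segment is taller in the HCC-LM3 libraries and the IGF2BP2 and IGF2BP3 segments are taller in the Huh-7 libraries, while libraries of 1 line look alike.

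The let-7 family ties LIN28B to the IGF2BP genes, so its shared seed and the matching letters in the markers are shown. All 9 mature let-7 and miR-98 sequences of the RefSeq table (GRCh38.p14) carry the same bases 2 to 8, in capitals in let-7a, whose locus lies at chr9:94175962-94175983 on the plus strand. The reverse complement of these bases in DNA letters, CTACCTC, was searched on the sense strand of the 3′ UTR of the longest coding GENCODE transcript. It occurred in 5 of the 10 markers, 4 times each in LIN28B and IGF2BP1 and 1 time each in IGF2BP2, IGF2BP3 and SALL4, and in 9.72% of 18625 coding genes. AFP, GPC3, IGF2, DLK1 and EPCAM had 0 matches. Over the 3′ UTRs of all 10 markers there were 11 matches in 25191 bases, 0.437 per kb, beside 0.0625 per kb over all coding genes. For each marker the match nearest to the stop codon is given, with the seed match in capitals and the bases around it in lower case. LIN28B and the IGF2BP genes are textbook let-7 targets, and a match is a description of letters, not a measured site. MicroRNA levels were not analysed here.
let-7a-5p: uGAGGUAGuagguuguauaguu
LIN28B, chr6:105078813-105078834, plus strand: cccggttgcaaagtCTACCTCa
IGF2BP1, chr17:49051062-49051083, plus strand: gtgtgcgaagtaaaCTACCTCa
IGF2BP2, chr3:185644220-185644241, minus strand: acacacagaagaagCTACCTCa
IGF2BP3, chr7:23311795-23311816, minus strand: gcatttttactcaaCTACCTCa
SALL4, chr20:51782923-51782944, minus strand: aagctttaatttatCTACCTCa

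In the lines, the 5 markers with a match did not share a direction: LIN28B and IGF2BP1 were higher in HCC-LM3, and IGF2BP2, IGF2BP3 and SALL4 were higher in Huh-7. Among 16 tested genes of the LIN28 and let-7 target list, members included, 3 were called higher in HCC-LM3 and 2 higher in Huh-7. Over all genes 14.4% were called higher in HCC-LM3 and 12.8% higher in Huh-7. The median log2 fold change of the list was −0.39, against 0.01 over all genes. LIN28B and TRIM71 entered the test only through HCC-LM3, so their calls were fixed in part by the filter. HMGA1, a chromatin protein and let-7 target, had a mean of 190 CPM in HCC-LM3 and 467 in Huh-7 (log2 fold change −1.30, SE 0.05, adjusted p = 1.21e-13), and NRAS had 132 and 154 CPM (−0.23, SE 0.05, adjusted p = 0.00115). DICER1, which cleaves microRNA precursors, had 109 and 97 CPM (0.17, SE 0.06, adjusted p = 0.0133). HMGA2 averaged 31.2 CPM in HCC-LM3 and 4.68 in Huh-7, and TRIM71 4.9 and 0.115 CPM. Both are named because of these values, which are a description.

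The sh-WDR4-2 libraries differed little from their controls in the markers that reached 1 CPM in the line. For the other markers the counts were too few to tell. No marker of at least 1 CPM passed 2-fold, 0 of 6 in HCC-LM3 cells, where 0.26% of 12683 genes did, and 0 of 5 in Huh-7 cells, where 0.109% of 11971 genes did. With 1 library a group these differences have no test, and the intervals cover counting error only. Duplicates from PCR count more than once, so even the counting error may be larger than shown.

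Among the 6 markers of at least 1 CPM in HCC-LM3, LIN28B had the largest difference. It was 1.27-fold higher in the library labelled sh-WDR4-2 (counting interval 1.18 to 1.37), a log2 fold change of 0.34 (0.23 to 0.46), which exceeded in size that of 92.1% of genes in the line. IGF2BP2 was 1.12-fold higher (1.04 to 1.21), a log2 fold change of 0.17 (0.05 to 0.28). The interval left out a ratio of 1 in these 2 of 6 markers, and in 42.1% of all genes of the line, so this is no more frequent among the markers than among genes in general. SALL4 had a log2 fold change of 0.22 (−0.05 to 0.53), GPC3 0.11 (−0.28 to 0.53), IGF2BP3 0.03 (−0.04 to 0.10) and IGF2BP1 0.02 (−0.03 to 0.07), and all 4 intervals included 0. The HCC-LM3 library labelled sh-WDR4-2 was run in lane 4 and the other 3 in lane 3, so the lane and the hairpin cannot be told apart in this line.

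In Huh-7 cells EPCAM had a log2 fold change of 0.22 (−0.04 to 0.51), SALL4 0.10 (−0.02 to 0.22), IGF2BP3 0.00 (−0.05 to 0.06), IGF2BP1 −0.00 (−0.06 to 0.06) and IGF2BP2 −0.05 (−0.14 to 0.04). The interval included a ratio of 1 in all 5 markers, and left it out in 30.1% of all genes of the line. For IGF2BP1 and IGF2BP3, counted 4237 times or more in each Huh-7 library, differences over 0.06 in log2 therefore lay outside the counting error. Of the markers under 1 CPM, AFP in HCC-LM3 went from 6 counts to 0 and IGF2 from 17 to 10 with the label sh-WDR4-2, a ratio of 0.801 for IGF2 (0.328 to 1.85), and DLK1 in Huh-7 from 4 to 5, a ratio of 1.34 (0.289 to 6.76), none of which was detectable at this depth.

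**Figure D3:**
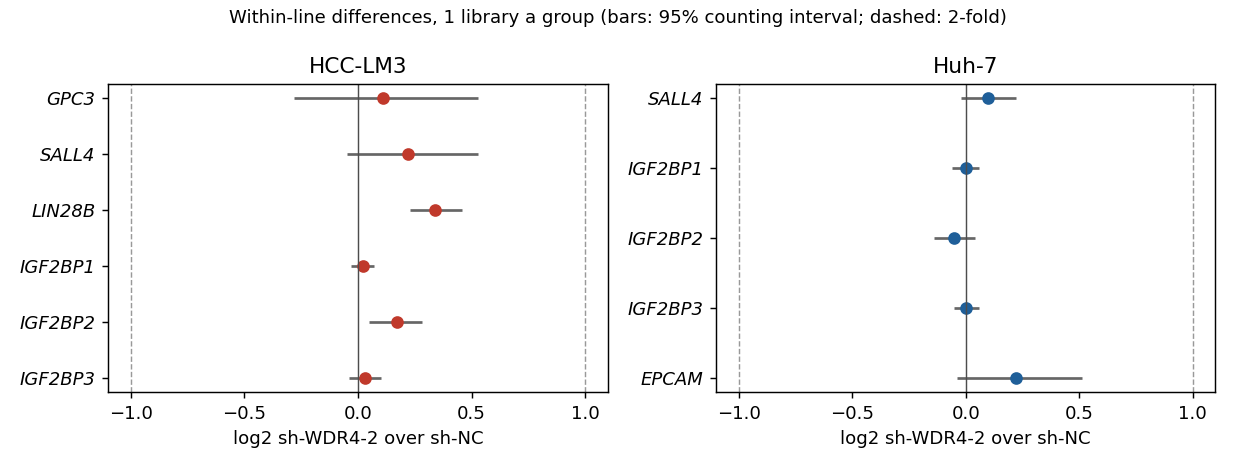
Log2 fold change of sh-WDR4-2 over sh-NC in HCC-LM3 and Huh-7 cells for markers of at least 1 CPM in the line, points on the log2(CPM + 0.5) scale and bars for the 95% counting interval of the ratio. All points lie between the dashed 2-fold lines, from −0.05 to 0.34, and only the bars of LIN28B and IGF2BP2 in HCC-LM3 leave out 0.

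Taking the lines as repeats of the hairpin, with the cell line as a term, edgeR's quasi-likelihood test called 0 of the 7 tested markers, against 2 of 12693 genes, 0.0158%. At an unadjusted p under 0.05 it listed 648 genes and 1 marker, LIN28B. Its log2 fold change was 0.35 (SE 0.15, edgeR adjusted p = 0.968), and rests on HCC-LM3 alone since LIN28B was at 0 in Huh-7. DESeq2 called 2 genes and 0 markers, with 146 genes and 0 markers at an unadjusted p under 0.05. The other 6 markers had log2 fold changes of 0.01 to 0.17 and adjusted p of 0.971 to 0.992 with edgeR. Among them GPC3, at 0 in Huh-7, also rests on HCC-LM3 alone. EPCAM, with 0 and 2 counts in HCC-LM3, rests almost entirely on Huh-7.

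The genes around the markers in their pathways were counted from lists, each including its members, with such misplaced symbols left out. Over all genes 14.4% were higher in HCC-LM3 and 12.8% in Huh-7. A gene high in only 1 line could enter the test through that line alone, and could then be called only in that direction. In the insulin-like growth factor axis, 3 of 12 tested genes were called higher in HCC-LM3 and 7 higher in Huh-7, with a median log2 fold change of −1.39. IGF1R, the signalling receptor for IGF2, averaged 100 CPM in HCC-LM3 and 512 in Huh-7 (log2 fold change −2.35, SE 0.05, adjusted p = 3e-17), and IRS2, an adaptor below it, 56.8 and 248 CPM (−2.13, SE 0.07, adjusted p = 7.32e-11). IGF2R, which clears IGF2 from the surface, had 312 and 323 CPM (−0.05, SE 0.05, adjusted p = 0.355). The receptors were thus counted in both lines while IGF2 itself was nearly at 0. IGFBP3, a carrier of IGFs, was the 1 gene of this list past 2-fold within a line, counted 8244 times in HCC-LM3 sh-WDR4-2 and 5179 times in its control (log2 fold change 1.11), and 10042 and 12233 in Huh-7, in the opposite direction.

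For AFP, 1 of 10 tested regulators was higher in HCC-LM3 and 4 were higher in Huh-7 (median log2 fold change 0.02). CEBPA, a liver transcription factor, had 7.22 CPM in HCC-LM3 and 70.7 in Huh-7 (−3.30, SE 0.10, adjusted p = 5.28e-15) and CEBPB 79.7 and 193 CPM (−1.27, SE 0.06, adjusted p = 3.27e-11), while NFIA, at 50.3 and 43.7 CPM, stayed within 2-fold. None of the 4 genes of the albumin cluster was tested, since ALB, AFM and GC were at 0 and AFP at 6 counts or fewer.

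In the glypican list, 6 of 12 genes were higher in HCC-LM3 and 2 higher in Huh-7, with a median of 1.04. GPC3 was not alone in being limited to HCC-LM3: GPC4 and GPC6, named after their values were seen, averaged 13 and 5.61 CPM in HCC-LM3 and had 0 counts in both Huh-7 libraries, and GPC5 averaged 15 CPM against 1.17. GPC3, GPC4 and GPC6 entered the test only through HCC-LM3, so their calls were fixed in part by the filter. GPC1 with 133 and 155 CPM and FURIN, the protease that cleaves GPC3, with 254 and 325 CPM were within 2-fold, as were EXT1 and EXT2, which build heparan sulphate chains, with 43.3 and 56.6 CPM and 106 and 75.6 CPM.

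SALL4 ran against its own family. In the SALL and NuRD list, 4 of 16 genes were higher in HCC-LM3 and 1, SALL4, was higher in Huh-7 (median −0.11). SALL1, SALL2 and SALL3, like MBD3 and MTA1 named after their values were seen, averaged 22.2, 16.9 and 5.79 CPM in HCC-LM3 and had at most 2 counts in any Huh-7 library. SALL1, SALL2 and SALL3 entered the test only through HCC-LM3, so their calls were fixed in part by the filter. The other call was MBD3, a subunit of NuRD, the repressor complex that SALL4 recruits, with 123 and 61.1 CPM, just past 2-fold (log2 fold change 1.01, SE 0.06, adjusted p = 1.07e-10), and MTA1 had 111 and 205 CPM (−0.88, SE 0.06). The 4 most abundant subunits, CHD3, CHD4, RBBP7 and RBBP4, lay at 194 to 471 CPM in both lines, with log2 fold changes of −0.18 to 0.05.

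Of 10 tested genes of the DLK1 and Notch list, 2 were higher in HCC-LM3 and 5 in Huh-7 (median −1.25). NOTCH1 had 46.9 and 203 CPM (−2.12, SE 0.06, adjusted p = 8.21e-16) and its ligand JAG2 18.8 and 107 CPM (−2.53, SE 0.08, adjusted p = 1.92e-13). NOTCH2, at 227 and 440 CPM, and the nuclear effector RBPJ, at 95.2 and 82.2 CPM, did not pass 2-fold. Of the 6 tested imprinted genes, 0 were higher in HCC-LM3 and 4 were higher in Huh-7 (median −1.25), among them CDKN1C, a growth inhibitor, with 8.98 and 105 CPM (−3.55, SE 0.08, adjusted p = 1.07e-16) and the adaptor GRB10 with 72.1 and 169 CPM (−1.24, SE 0.09, adjusted p = 8.86e-06). PLAGL1 with 72.8 and 108 CPM and PEG10 with 201 and 224 CPM were within 2-fold.

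Among the partners and proteases of EPCAM, 1 of 13 was higher in HCC-LM3 and 3 were higher in Huh-7, EPCAM included (median −0.16). CD9, a tetraspanin that associates with EPCAM, had 54.3 and 118 CPM (−1.12, SE 0.06, adjusted p = 1.36e-11), and CTNNB1, FHL2 and ADAM10 were within 2-fold. Of 8 tested progenitor and stem cell markers, 3 were higher in HCC-LM3 and 5 in Huh-7 (median −1.53). CD44 had 137 and 289 CPM (adjusted p = 2.05e-12) and KRT7, a biliary keratin, 1582 and 372 CPM (adjusted p = 0.0002). ICAM1 had 0.29 and 46.6 CPM and NCAM1 18.9 and 0.335 CPM, and both entered the test only through the line in which they were high. Such genes also enter the counts of the other lists. Of 11 tested other HCC markers, 1 was higher in HCC-LM3 and 0 in Huh-7 (median −0.07). SQSTM1 had 1046 and 534 CPM, HSPA5 740 and 778 CPM and ANXA2 552 and 676 CPM, all within 2-fold. No gene of these lists was called in the common test of the hairpin.

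The gene whose profile over the 4 libraries lay nearest to each marker, by the Euclidean distance between centred log2(CPM + 0.5) values among 12560 genes, was CCND2, encoding cyclin D2, for LIN28B (distance 0.053), FAM110B for GPC3 (0.0362), C4orf19 for SALL4 (0.0381), HSBP1 for IGF2BP1 (0.00595), EMC2 for IGF2BP2 (0.0246), TTL for IGF2BP3 (0.00692) and PDZD2 for EPCAM (0.124). CCND2 had 1245 and 1280 counts in HCC-LM3 and 0 in both Huh-7 libraries, next to 1250 and 1338 for LIN28B. Over 4 libraries that fall into 2 lines, such a distance mostly compares 1 ratio between the lines.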

How the data were processed

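RNA-seq of 4 libraries, 1 per cell line and shRNA, was analysed from 1 table in which the authors deposited, for each gene symbol, raw counts and FPKM. FPKM as deposited are the counts over the library total and over a gene length in whole bases, and served here to recover that length. The study's methods name the VAHTS mRNA-seq v2 kit and edgeR, and the labels name a TruSeq kit. For these human cells the submitters' processing notes list Bowtie 0.12.2 and 2 mouse genome builds (mm8, mm9) without a role. Counter, annotation and strand setting: not given in the sources used here.

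Members and gene lists were chosen with earlier results of these data known. The 10 members were named, with the nearest profile of each and up to 4 non-members per list by mean CPM, of which 1 is not reported here. TMM factors from edgeR 4.0.16 (R 4.3.3) were 1.07 and 1.07 for HCC-LM3 and 0.933 and 0.934 for Huh-7. Both tests were edgeR robust quasi-likelihood tests in genes of at least 1 CPM, with Benjamini-Hochberg adjustment. They were also run on simulated counts with a dispersion common to all genes and, for the hairpin, no cell line difference. These settings differ from the data, so that run does not show how the tests perform here. The pairing of the hairpin test comes from the cell line, entered as a block. Within a line, log2 ratios used CPM + 0.5, intervals were exact conditional binomial intervals at 95% and no p-value was made. Alternatives were other size factors, DESeq2 1.42.0, other filters, pseudocounts of 0.1 and 1, and a 1.5-fold threshold. Each test was also fitted without its other term, the hairpin in the line test and the cell line in the hairpin test. The line test was further run leaving out each library, without the hairpin as a term. Other values came from Python 3.11.15 with scipy 1.17.1.

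The entries follow the order of a Python dictionary with 32768 places. Of them, 231 stood out of order, 27 of these with a symbol turned into a date, so their symbols may be exchanged. None of the 10 members was among them. IGF1, MYCN, HDAC1 and TGFB1 were, and were left out of the lists. H19, MEG3, KCNQ1OT1 and CD24 matched no entry. Coordinates are from GENCODE release 29 on GRCh38 and microRNAs from RefSeq.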

Additional observations from a re-analysis of the deposited data

Results flagged for a closer look

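IGFBP3, a carrier of insulin-like growth factors and no oncofetal marker itself, lay in opposite directions in the cell lines. Its log2 fold change of sh-WDR4-2 over sh-NC was 1.11 in HCC-LM3 (95% counting interval 1.07 to 1.17) and −0.18 in Huh-7 (−0.22 to −0.14). The difference between the lines was not tested, since each rests on 1 library a group. No marker had intervals on opposite sides of 0 in the lines.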

How the results depend on the processing

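For each tested marker the difference between the lines kept its direction and its side of the threshold in every alternative in which it could be fitted, 7 to 10 for each, with log2 fold changes of 12.73 to 13.41 for LIN28B, 9.10 to 9.78 for GPC3, −10.78 to −7.02 for EPCAM, −2.69 to −2.38 for SALL4, 0.47 to 0.68 for IGF2BP1, −0.92 to −0.64 for IGF2BP2 and −0.64 to −0.43 for IGF2BP3. For GPC3 and LIN28B, not counted in Huh-7, the adjusted p depended on the tool. It was 4.63e-08 and 1.92e-15 with edgeR, and 0.0338 and 0.00267 with DESeq2. Library totals without TMM moved the median of all genes by 0.20 (log2). At a mean of at least 10 CPM, 2 markers, LIN28B and SALL4, were called because GPC3 and EPCAM were no longer tested, and 1883 genes were called against 3447. Without a filter 5 markers and 4399 genes were called, the fifth marker being IGF2 (log2 fold change 4.34, SE 1.72, edgeR adjusted p = 0.0237). That call rests on 10 and 17 counts in HCC-LM3 and 1 and 0 in Huh-7. Because of the overlapping genes these reads cannot be assigned with certainty. AFP and DLK1 were not called without a filter (edgeR adjusted p = 0.691 and 0.134). The fits that left out each library also dropped the hairpin as a term. They leave a lone library in 1 line, which is assumed to vary like the other line, so only their effect sizes are used. Without either HCC-LM3 library GPC3 fell below the filter. Deposited FPKM moved 16 of the levels by more than their counting interval, as TMM shifts the libraries. Without the hairpin as a term 4 markers and 3438 genes were called. The hairpin called 0 markers in every alternative, and over all genes 11 without a filter and 0 without the cell line as a term, against 2. Within HCC-LM3, 33 genes past 2-fold became 59 with a pseudocount of 0.1, 50 without a filter, 12 at 10 CPM and 233 at 1.5-fold. Within Huh-7, 13 became 26 with a pseudocount of 0.1, 7 with a pseudocount of 1, 26 without a filter, 1 at 10 CPM and 112 at 1.5-fold. No marker passed any of these. The cause of these shifts in counts was not tested beyond the genes each setting admits. No member's symbol stood out of order, so the alternative planned for that case was not run. The main limits are 1 library per group, fits with 1 residual degree of freedom, a fall of WDR4 that was small or not detectable, the confounded lane in HCC-LM3 and labels that disagree. At 29807047 counts or more, levels under 0.094 CPM cannot be told from 0.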
